A study of Mus musculus with 6 samples.

Results

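The Schlafen genes Slfn5, Slfn9, Slfn8, Slfn10-ps and Slfn2 lie next to each other on mouse chromosome 11, from 82951349 to 83070678 (GRCm38), a span of 119 kb. They were chosen by name, from a count table whose WT and KO values for them were already known. Their values are therefore given as a description, and no p-value is given for their difference between the genotypes. Standard errors (SE) and counting intervals of the members are printed for scale only. They rest on the contrast that was already known and are no support for a difference. They are 5 of the 22295 genes of the table and 5 of the 21681 with a count in at least 1 library. Only 3 of the 5 (Slfn9, Slfn8 and Slfn10-ps) also passed the stricter filterByExpr limit on low counts, which Slfn2 and Slfn5 did not. Slfn8 and Slfn10-ps had at most 8 and 3 counts in a KO library and passed through their WT counts. Passing is thus no separate support for their difference between the genotypes.

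Transcripts were counted in back skin keratinocytes, sorted for GFP, of 3 K19 Itga3 WT and 3 K19 Itga3 KO mice after short-term DMBA/TPA treatment, a chemical carcinogen followed by a tumor promoter. Both groups, on an FVB background, carried a tamoxifen-inducible Cre (Cre-ERT) under the keratin 19 promoter and the mTmG reporter, which switches recombined cells and their progeny from red to green fluorescence, and the KO mice were in addition Itga3 fl/fl. All mice were 6 weeks old at the start of 4 days of tamoxifen (10 mg/ml per the labels), received 30 μg DMBA at 7 weeks and then 12.34 μg TPA bi-weekly for 2 weeks, each in 200 μl acetone. Because Cre acts from the keratin 19 promoter, recombination is directed to hair bulge (HB) cells, and the sorted cells are these and their progeny.

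Schlafen genes encode proteins that share a divergent AAA-type domain named after the family, and many are induced by type I interferon. The short forms, such as Slfn2, consist of little more than this domain, whereas the long forms, such as Slfn5, Slfn8 and Slfn9, carry a helicase-like region as well. They are best known from blood cells, where Slfn2 keeps T cells in quiescence, and several family members restrict viruses. Slfn10-ps is annotated as a pseudogene of the long group.

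Slfn9 (ENSMUSG00000069793, 82979629 to 82991830, minus strand), Slfn8 (ENSMUSG00000035208, 83002158 to 83020810, minus strand) and Slfn10-ps (ENSMUSG00000072621, 83028130 to 83040042, minus strand) follow each other in the middle of the span. They are flanked by Slfn5 (ENSMUSG00000054404, 82951349 to 82962941, plus strand) and Slfn2 (ENSMUSG00000072620, 83065112 to 83070678, plus strand). The 3 genes of the middle are near copies of each other. The longest annotated transcripts of Slfn8 and Slfn9 were 89.5% identical over 3846 aligned bases, those of Slfn8 and Slfn10-ps 92.2% over 3531, and those of Slfn9 and Slfn10-ps 92.2% over 3440. Slfn5 aligned to these 3 over at most 1604 bases, with an identity of 66.5% to 66.8%, and Slfn2 aligned to any of the other members over at most 53 bases.

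The likeness extends to the start of the genes. The 250 bases upstream of Slfn9 (chr11:82991831-82992080, minus strand) and of Slfn8 (chr11:83020811-83021060, minus strand), taken from RefSeq (GRCm38.p6), were 85.0% identical over 234 aligned bases, and both are shown because these genes had similar fold differences between the genotypes. They are written from 5′ to 3′ on the strand of the gene, so that transcription starts after the last base, and capitals mark a match to the core of the interferon-stimulated response element, GAAANNGAAA, read on the other strand.
Slfn9: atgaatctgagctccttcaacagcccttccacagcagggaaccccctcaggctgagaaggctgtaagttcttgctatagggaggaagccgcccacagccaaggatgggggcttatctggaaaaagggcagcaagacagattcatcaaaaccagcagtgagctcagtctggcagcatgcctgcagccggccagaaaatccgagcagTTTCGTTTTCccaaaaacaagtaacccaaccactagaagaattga
Slfn8: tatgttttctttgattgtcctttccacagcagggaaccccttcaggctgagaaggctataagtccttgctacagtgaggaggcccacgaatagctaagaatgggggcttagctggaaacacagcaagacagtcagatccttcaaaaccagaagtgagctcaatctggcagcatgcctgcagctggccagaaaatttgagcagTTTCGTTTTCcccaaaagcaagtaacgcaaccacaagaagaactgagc
The match begins 45 bases upstream of the Slfn9 start and 48 bases upstream of the Slfn8 start used here and has the same 10 letters in both, TTTCGTTTTC. Slfn8 has a second start in the promoter table, and the match begins 136 bases upstream of that start. Of the members, 4 had an entry in the promoter table. Slfn5 holds 1 match, GAAAAAGAAA, 155 bases upstream of its RefSeq start, and the window of Slfn2 (chr11:83064862-83065111, plus strand) holds none. Of all 32851 promoter windows in the table, each with 250 bases before and 50 after a start, 3.44% hold these letters on either strand. The gamma-activated site, TTCNNNGAA, and the TPA response element, TGANTCA, were in none of the 4 members' windows and in 8.30% and 7.81% of all windows. Matches of letters are a description of the sequence, not evidence of a bound factor.

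Depth lay between 20578309 and 23670507 counts per library, so that 3 counts, taken as the floor of detection, equal 0.127 to 0.146 CPM (counts scaled to the size of the library). All CPM values were scaled with TMM factors, which were between 0.981 and 1.03. Letters (WT a to c, KO a to c) follow the order of the columns, since the table gives no sample numbers. The targeted gene Itga3, which encodes the α3 subunit of integrin α3β1, stood at 298 ± 63.9 CPM in WT against 129 ± 5.22 CPM in KO (SD, n = 3 each). Its log2 fold change was -1.20 (SE 0.13, adjusted p = 0.00283 from edgeR), but leaving out WT c or KO a gave an adjusted p of 0.13 or 0.0934 in edgeR. Of the 21681 tested genes, 0.673% had an adjusted p below 0.05 (called from here on), 0.461% higher and 0.212% lower in KO. Keratinocyte and bulge markers of the sorted cells were present, with a summed level of 32200 to 49300 CPM in WT and 37600 to 43700 CPM in KO libraries over 8 genes. Krt5, Krt15 and Krt14 held most of this sum, and the bulge genes Cd34 and Lgr5 stood at 853 and 586 CPM in WT. Krt19, whose promoter drives the Cre, was low, at 3.32 ± 1.32 CPM in WT and 2.73 ± 0.441 CPM in KO (SD, n = 3 each).

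Slfn9 had by far the most counts of the cluster. It stood at 450, 492 and 767 counts in the WT libraries (in the order a, b, c, here and below) and at 102, 118 and 103 counts in the KO libraries. The highest KO library was thus well below the lowest WT library, and WT c was above WT a and b. Scaled levels were 25.7 ± 7.12 CPM in WT against 4.95 ± 0.600 CPM in KO (SD, n = 3 each). The fitted log2 fold change was -2.37 (SE 0.20), and the ratio of the summed counts, corrected for depth, was 5.23 (95% counting interval 4.64 to 5.91) for WT over KO. With other tests, normalizations and filters, and when any 1 library was left out, the log2 fold change stayed between -2.50 and -2.12, and the value nearest to 0 was that without WT c.

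Slfn8, the long form most like Slfn9 in its promoter, was much less abundant but had a log2 fold change of similar size. Counts were 32, 21 and 37 in the WT libraries and 4, 4 and 8 in the KO libraries, so that all KO libraries were again below all WT libraries. In CPM this was 1.35 ± 0.349 in WT against 0.248 ± 0.120 in KO (SD, n = 3 each), with a log2 fold change of -2.44 (SE 0.43). The WT over KO ratio of 5.56 had a wide counting interval, 3.24 to 10.1, which spans the whole interval of Slfn9. Over the other settings the log2 fold change of Slfn8 was -2.89 to -2.22.

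Slfn10-ps was the member with the largest fold between the genotypes. It had 64, 55 and 87 counts in the WT libraries, against 3, 2 and 1 counts in the KO libraries, and all 3 KO values were at or below the floor. The level was 3.10 ± 0.673 CPM in WT against 0.0899 ± 0.0397 CPM in KO (SD, n = 3 each). The ratio of summed counts was 33.9 for WT over KO (95% counting interval 15.3 to 93.6). This interval covers counting error only and leaves out the spread between mice, so it does not test a difference between the members. The fitted log2 fold change, -5.0 (SE 0.41) with a range of -5.33 to -4.73 over the other settings, rests on 6 KO counts and depends on how the fit treats such low counts.

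The flanking genes gave little signal. Slfn2, the short form known from T cells, had 6, 2 and 9 counts in the WT libraries and 6, 3 and 3 counts in the KO libraries. The groups overlapped, with 0.255 ± 0.154 CPM in WT against 0.180 ± 0.0648 CPM in KO (SD, n = 3 each). Its ratio of WT over KO was 1.40 (95% counting interval 0.630 to 3.21), so that a difference in either direction is within counting error at this depth. Slfn5, a long form on the other side, had 2, 0 and 2 counts in the WT libraries and 0 in every KO library. Both groups were at or under the floor, and no fold is given.

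**Figure D1:**
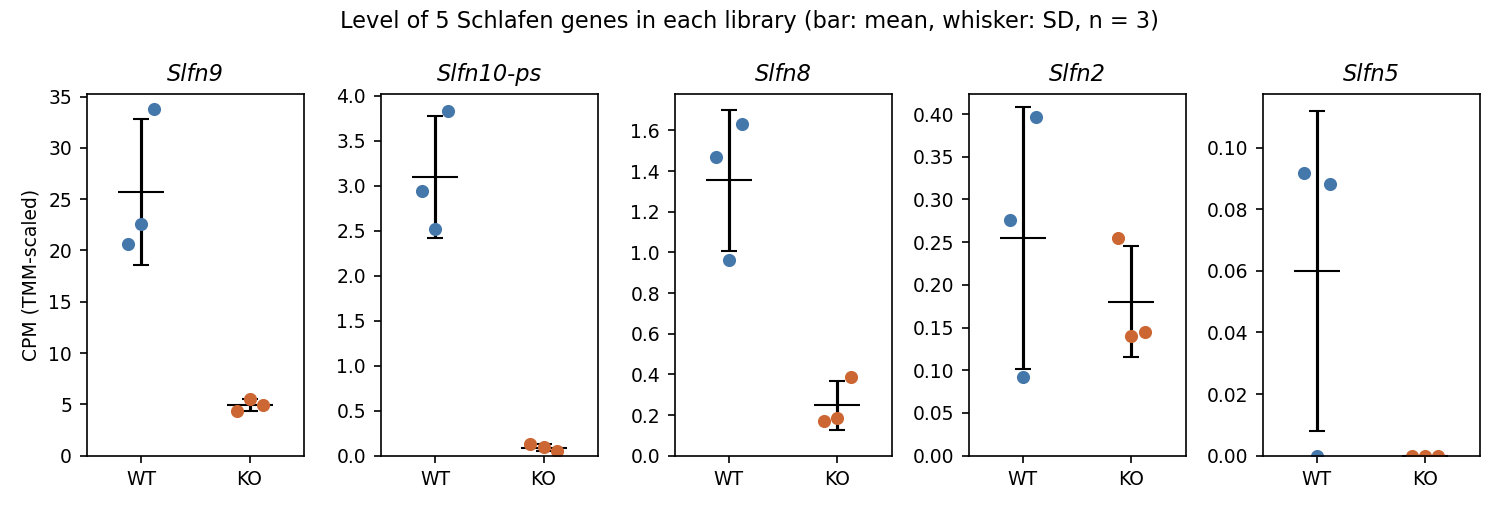
Level of each Schlafen gene of the cluster in CPM (vertical axes, 1 scale per gene, each starting at 0) in the 3 WT (blue) and 3 KO (orange) libraries; points are libraries, horizontal bars means and whiskers SD. Slfn9, Slfn10-ps and Slfn8 have all KO points below all WT points, the points of Slfn2 overlap, and Slfn5 is at 0 in all KO libraries.

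Every KO library was below every WT library for 3 of the 5 members, a pattern found in 8.23% of all tested genes (1785 of 21681). This contrast chose the members, and nothing is read from the count. In sorted bulk RNA, fewer cells with a transcript and less transcript per cell cannot be told apart. The floxed allele of Itga3 lies on the same chromosome, 12 Mb beyond the cluster. All KO mice carried it and no WT mouse did, so loss of Itga3 and other sequence inherited with that allele cannot be told apart in these groups.

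To compare the genes with each other, levels were divided by the length of the exons. In WT libraries the order was Slfn9 (4.30 ± 1.19 CPM per kb, SD, n = 3), Slfn10-ps (0.855 ± 0.186), Slfn8 (0.331 ± 0.0853), Slfn2 (0.153 ± 0.0923) and Slfn5 (0.00948 ± 0.00822). Slfn9, Slfn10-ps and Slfn8 did not overlap with each other in any WT library. Slfn2 and Slfn5 did not overlap either, but the lowest Slfn2 and the highest Slfn5 library had only 2 counts each. The lowest Slfn8 library, 0.235 CPM per kb, was just below the highest Slfn2 library, 0.238 CPM per kb, and these neighbours are not separated beyond their spread. In KO libraries the order was Slfn9 (0.830 ± 0.101 CPM per kb, SD, n = 3), Slfn2 (0.108 ± 0.0389), Slfn8 (0.0607 ± 0.0294), Slfn10-ps (0.0248 ± 0.0110) and Slfn5 (0). Slfn10-ps thus went from the second place to a place below Slfn8 and Slfn2. Its KO place rests on 3, 2 and 1 counts, against 4, 4 and 8 of Slfn8 and 6, 3 and 3 of Slfn2. The order of these 3 genes in KO is therefore not settled. Slfn2 and Slfn8 overlapped in KO, where single libraries had 0.0846 to 0.153 and 0.0416 to 0.0946 CPM per kb.

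Against all 21444 tested genes with a known exon length, Slfn9 was at percentile 62.3 of the WT levels per kb and at percentile 45.4 of the KO levels. The median gene stood at 1.56 CPM per kb in WT and 1.49 in KO, so that Slfn9 went from above to below the middle of the distribution. Slfn10-ps went from percentile 45.1 to 17.7 and Slfn8 from 38.3 to 25. Slfn2 stayed in a similar place, at percentile 32.1 in WT and 29.8 in KO, and Slfn5 was at 10.3 and 3.31.

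The 3 near copies were also set against each other within each library, which removes depth and scaling. Of the summed counts of Slfn9, Slfn8 and Slfn10-ps, the share on Slfn10-ps was 11.7% in WT a (exact 95% binomial interval 9.15% to 14.7%), 9.68% in WT b (7.38% to 12.4%) and 9.76% in WT c (7.89% to 11.9%). In the KO libraries the share was 2.75% in KO a (0.571% to 7.83%), 1.61% in KO b (0.196% to 5.70%) and 0.893% in KO c (0.0226% to 4.87%). All KO shares were below all WT shares, although the interval of KO a reaches into that of WT b. The share on Slfn8 overlapped between the genotypes, with 5.86%, 3.70% and 4.15% in the WT libraries and 3.67%, 3.23% and 7.14% in the KO libraries. Slfn9 held 82.4%, 86.6% and 86.1% of the counts in the WT libraries and 93.6%, 95.2% and 92.0% in the KO libraries. The sums behind these shares were 546 to 891 counts in WT but only 109 to 124 counts in KO, and the intervals cover counting error only.

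**Figure D2:**
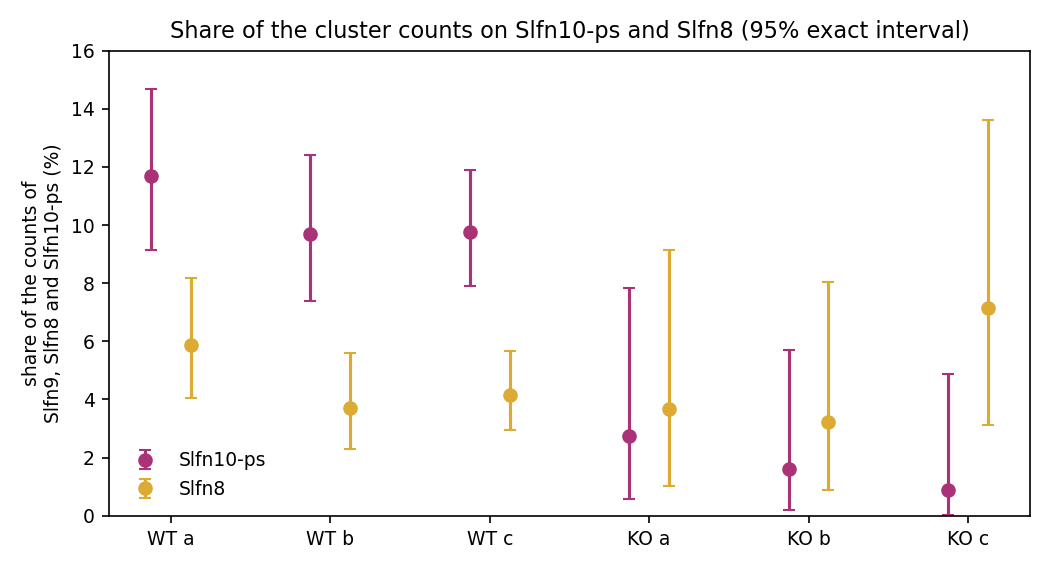
Share of the summed Slfn9, Slfn8 and Slfn10-ps counts (vertical axis, percent) that fell on Slfn10-ps (purple) and on Slfn8 (yellow) in each library (horizontal axis); points are shares and whiskers exact 95% binomial intervals. Slfn10-ps lies at 9.68% to 11.7% in WT and at 0.893% to 2.75% in KO libraries, whereas the Slfn8 shares overlap.

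How far reads can be assigned to 1 member bears on these values, since the authors kept uniquely mapped reads of 65 bases. In the annotated transcripts, 92.6% of the 65-base windows of Slfn9, 90.8% of those of Slfn8, 86.1% of those of Slfn10-ps, 97.6% of those of Slfn2 and 90.7% of those of Slfn5 occurred in no other gene. Windows that lay within 2 mismatches of another Schlafen gene made up 42.7% of Slfn10-ps, 34.8% of Slfn8, 27.4% of Slfn9, 9.88% of Slfn2 and none of Slfn5. Where mice carry sequence that differs from the reference at such a window, a read can be lost or counted for the wrong copy, and its part in the counts of Slfn9, Slfn8 and Slfn10-ps was not tested. Dividing by the number of unique windows in place of the exon length gave WT levels of 4.65 for Slfn9, 1.01 for Slfn10-ps, 0.354 for Slfn8, 0.163 for Slfn2 and 0.0105 CPM per kb for Slfn5, in the same order.

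The rest of the family was close to silent in these cells. Slfn1, a short form, had no count in any library. Slfn3 had 1 count, in WT c, and Slfn4 had 1 count each in WT a and WT c, with none in any KO library. Slfnl1, a distant relative on chromosome 4, had 2, 0 and 3 counts in the WT libraries and 2, 1 and 2 in the KO libraries. Of the 3 of these genes that were tested, none was called and none had an unadjusted p below 0.05 in edgeR, and limma-voom and DESeq2 called none, but all of their counts were at or under the floor. Slfn14 was not among the genes of the count table, so nothing can be said of its level.

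The genes around the cluster were examined for differences of the same kind. Of 44 other genes within 1 Mb on each side, 42 were tested, and 2 were called, both higher in KO, against 0.461% of all genes called higher. None was called lower, and 6 (14.3%) had an unadjusted p below 0.05 in edgeR, against 11.5% of all tested genes (2503 of 21681). In this window 20 genes had a fitted value above 0 and 22 below, with a median log2 fold change of -0.03. Of the 19 neighbours with a mean of 20 counts or more, the 17 that were not called had log2 fold changes between -0.82 and 0.71 with a median of 0.02, and the smallest adjusted p among them was 0.241 (edgeR). The ends of this range were Mmp28, a matrix metalloproteinase, and Ccl2, a chemokine for monocytes, named after their values were seen.

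On the proximal side the nearest gene, Unc45b, a myosin chaperone of muscle, had 1 count in all libraries together. Nle1, which acts in ribosome assembly, was at 27.1 ± 4.08 CPM in WT against 31.0 ± 1.72 CPM in KO (SD, n = 3 each), with a log2 fold change of 0.19 (SE 0.13, adjusted p = 0.633 from edgeR). Rad51d, a gene of homologous recombination, was at 22.8 ± 3.33 and 20.9 ± 1.45 CPM (SD, n = 3 each), with a log2 fold change of -0.13 (SE 0.13, adjusted p = 0.687 from edgeR). The pseudogenes Gm11424 and Gm11425, inside the cluster, had 1 and 5 counts over all libraries.

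On the distal side AI662270 had 0 to 3 counts per library, whereas AA465934 went in the direction opposite to Slfn9. AA465934 (ENSMUSG00000093483, 83291699 to 83294632) is a noncoding transcript that contains the snoRNA gene Snord7, with which it can share reads. It had 31, 52 and 35 counts in the WT libraries and 302, 246 and 267 counts in the KO libraries. The level rose from 1.78 ± 0.522 to 12.4 ± 0.773 CPM in KO (SD, n = 3 each), with a log2 fold change of 2.80 (SE 0.21, adjusted p = 0.00019 from edgeR). All 3 KO libraries were above all WT libraries (p = 0.1 by an exact permutation test, two-sided, which cannot give a lower p with 3 against 3). Snord7 itself had 0 to 4 counts per library.

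The second called neighbour, Wfdc18, which encodes a small secreted protein of the whey acidic protein family, lies 638.3 kb beyond the cluster. Its counts were 6, 14 and 12 in the WT libraries and 957, 182 and 244 in the KO libraries, so that 1 KO library was far above the others. The log2 fold change was 5.38 (SE 0.62, adjusted p = 0.00337 from edgeR), and 4.38 without KO a, the highest library. The call was lost with limma-voom (adjusted p = 0.142), after filterByExpr (adjusted p = 0.0517, edgeR) and without WT c (adjusted p = 0.267, edgeR).

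**Figure D3:**
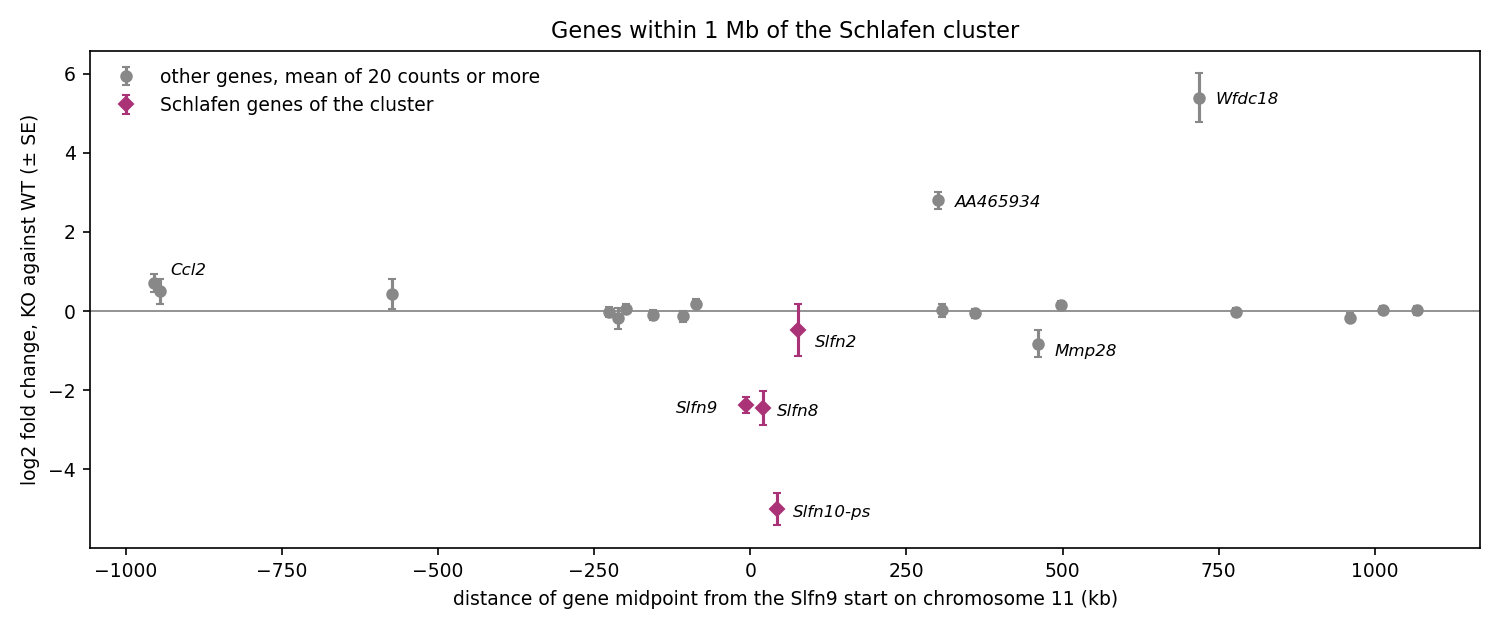
Fitted log2 fold change of KO against WT (vertical axis, whiskers SE) against the distance of each gene's midpoint from the Slfn9 start in kb (horizontal axis) for Schlafen genes of the cluster (purple diamonds) and other genes with a mean of 20 counts or more (grey). Slfn9, Slfn8 and Slfn10-ps stand at -2.37 to -5.0, AA465934 and Wfdc18 at 2.80 and 5.38, and the other genes between -0.82 and 0.71; Slfn5, with both groups at or under the floor, is not drawn.

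Because Schlafen genes respond to interferon, the genes of interferon signalling were read beside the cluster. Receptors, kinases and transcription factors of the pathway were all present, and none of 18 was called in edgeR, where 0.673% of all genes were. DESeq2, which called 3.99% of all genes that it gave an adjusted p, called 1 of them, and limma-voom called none. The unadjusted p in edgeR was below 0.05 for 2 of them (11.1%), against 11.5% of all tested genes. The median log2 fold change was -0.04, with 6 genes higher and 12 lower. Irf1, a transcription factor induced by interferon gamma, stood at 75.8 ± 8.74 CPM in WT against 105 ± 14.3 CPM in KO (SD, n = 3 each) (log2 fold change 0.46, SE 0.12, adjusted p = 0.117 from edgeR). Socs1, a feedback inhibitor of the pathway, had a log2 fold change of 0.56 (SE 0.20, adjusted p = 0.291 from edgeR), and the kinase gene Tyk2 one of -0.18 (SE 0.09, adjusted p = 0.503 from edgeR). Jak1, the most abundant gene of the list, was at 226 ± 22.5 and 244 ± 8.63 CPM (SD, n = 3 each; adjusted p = 0.681 from edgeR). Irf9, a transcription factor of the type I interferon response, was at 34.5 ± 5.69 and 34.2 ± 2.68 CPM (SD, n = 3 each), with a log2 fold change of -0.01, and was named after its values were seen.

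Genes stimulated by interferon were more often lower than higher in KO by their fitted values, and no lower gene was called. Of 39 listed genes 38 were tested, 13 with a higher and 25 with a lower fitted value in KO, and the median log2 fold change was -0.14, against 0.00 over all tested genes. Only Xaf1 was called, and it was higher in KO, where 0.461% of all genes were called higher. The unadjusted p in edgeR was below 0.05 for 13 of them (34.2%), against 11.5% of all tested genes. Every KO library was below every WT library for 9 of the 38 (23.7%), against 8.23% of all tested genes, and above every WT library for 4 (10.5%), against 8.03%. Xaf1, which encodes an antagonist of the apoptosis inhibitor XIAP and lies elsewhere on chromosome 11, rose from 4.71 ± 1.21 to 11 ± 1.52 CPM in KO (SD, n = 3 each), with a log2 fold change of 1.22 (SE 0.20, adjusted p = 0.0248 from edgeR). This call held in 5 of 11 other settings and was lost with limma-voom (adjusted p = 0.0874), after filterByExpr (0.116, edgeR), without WT c (0.368, edgeR) and without KO a, b or c (0.174, 0.0563 and 0.113, edgeR).

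The 9 genes below WT in every KO library were Trim25, Lgals3bp, Parp14, Dtx3l, Eif2ak2, Psmb8, Ifih1, Oas1g and Herc6, and the 4 above were Xaf1, Mx1, Ifit1 and Isg15. Apart from Xaf1 they were named after their values were seen, and none of these others was called. Among the lower genes, Oas1g, of the oligoadenylate synthetase family, had a log2 fold change of -1.40 (SE 0.45, adjusted p = 0.221 from edgeR), Herc6 -0.72 (SE 0.24, adjusted p = 0.252) and the immunoproteasome subunit gene Psmb8 -0.63 (SE 0.19, adjusted p = 0.181). Lgals3bp had -0.61 (SE 0.16, adjusted p = 0.122 from edgeR), Parp14 -0.59 (SE 0.17, adjusted p = 0.172) and Trim25 -0.33 (SE 0.10, adjusted p = 0.183). The RNA sensor genes Eif2ak2 and Ifih1 had -0.21 and -0.13, and Dtx3l had -0.28. Among the higher genes, Mx1, an antiviral GTPase, had a log2 fold change of 1.76 (SE 0.54, adjusted p = 0.194 from edgeR), Isg15, a ubiquitin-like modifier, 1.45 (SE 0.34, adjusted p = 0.0861) and Ifit1 1.12 (SE 0.37, adjusted p = 0.236). B2m, the most abundant of these genes and the light chain of MHC class I, was at 420 ± 107 CPM in WT against 320 ± 22.5 CPM in KO (SD, n = 3 each) (adjusted p = 0.335 from edgeR). The list summed to 940 to 1370 CPM in WT and 947 to 992 CPM in KO libraries.

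**Figure D4:**
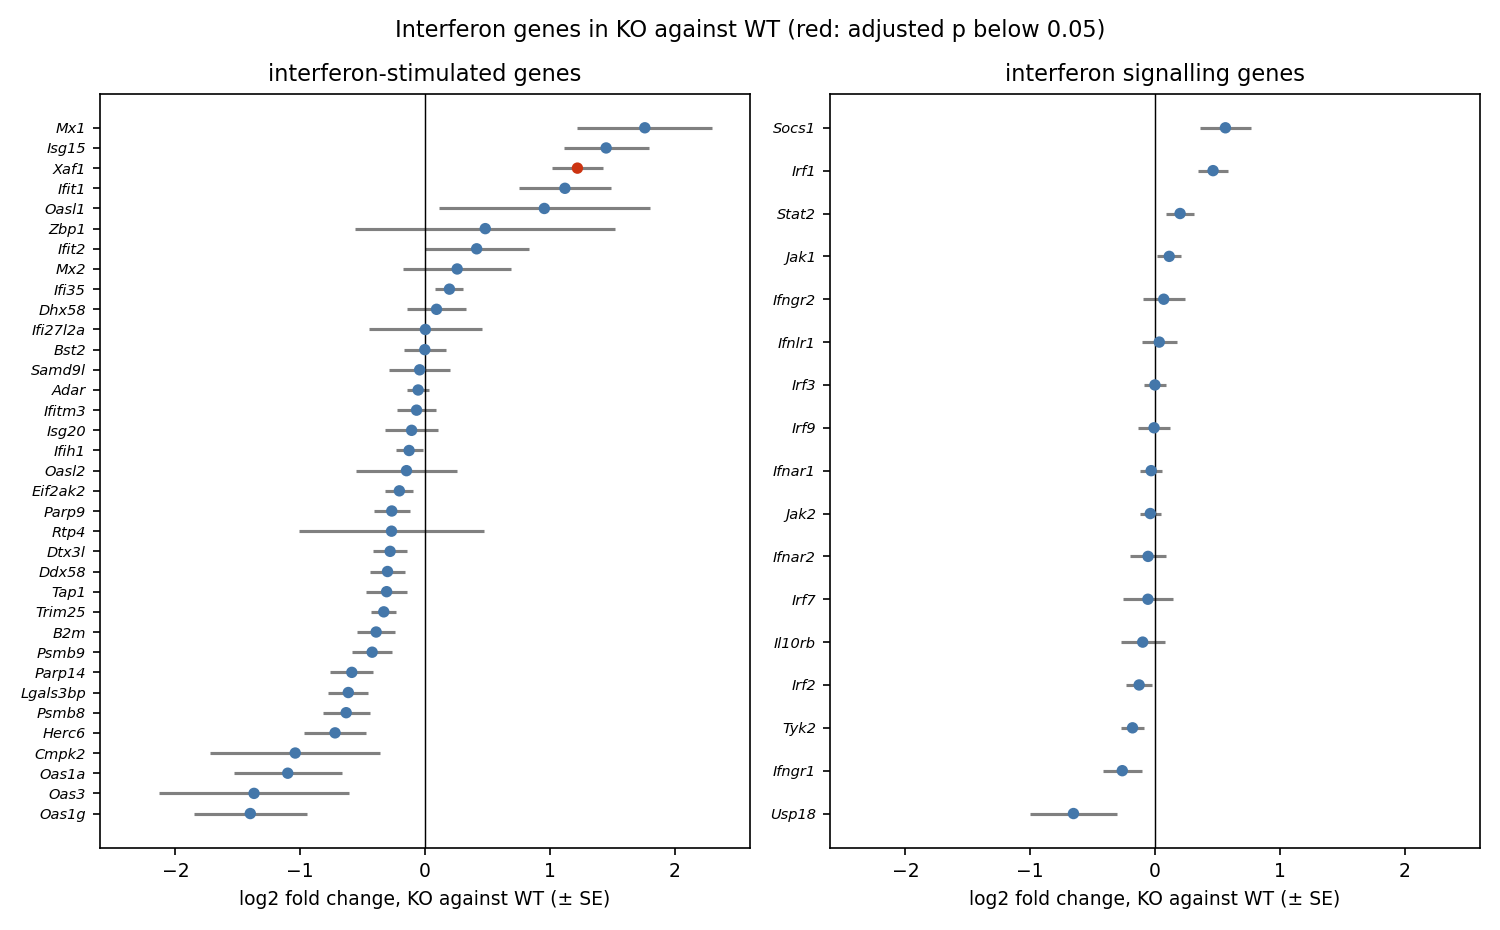
Fitted log2 fold change of KO against WT (horizontal axes, whiskers SE) of interferon-stimulated genes (left) and interferon signalling genes (right), sorted by value, with called genes in red. Xaf1 at 1.22 is the 1 called gene; Rsad2, Ifi44 and Oas2, with at most 2 counts in any library, are not drawn, nor is 1 gene of the signalling list.

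Schlafen genes are also transcribed in blood cells, so markers of other cell types were counted in the same libraries. T cell markers (15 genes) summed to 64.6 to 93.9 CPM in WT and 28.1 to 53.8 CPM in KO, but without Thy1, which had most of this sum, they were at 6.15 to 8.02 and 6.14 to 7.01 CPM. The defining genes of T cells were near 0, with at most 2 counts of Cd4 and Cd8a, 1 of Cd3d, 6 of Cd3e and 10 of Cd3g in any library. Ptprc, the pan-leukocyte gene, had 8, 6 and 11 counts in the WT libraries and 4, 8 and 13 in the KO libraries. Of 11 defining immune genes, 5 had 3 counts or fewer in every library, none was at 0 in all of them, and the highest value was 111 counts, of Cd68. Macrophage and Langerhans cell markers (17 tested genes) summed to 16.9 to 23.5 CPM in WT and 16.6 to 23.8 CPM in KO. Lyz2, a macrophage lysozyme, had 2 counts, in KO c.

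The summed levels of 3 other lists were lower in KO together with the members, and in each a few genes held most of the sum. Fibroblast markers (9 genes) summed to 137 to 180 CPM in WT and 49.4 to 92.5 CPM in KO, endothelial markers (6 tested genes, with Cldn5 at 0 in all libraries) to 6.22 to 9.04 and 4.17 to 5.27 CPM, and melanocyte markers (7 genes) to 64.9 to 82.4 and 41.6 to 48.9 CPM. Without Col1a1 and Col1a2 the fibroblast sums overlapped, at 4.22 to 23.6 CPM in WT and 7.27 to 18.2 CPM in KO, and 3 of the 9 genes were higher in KO by their fitted values. Without Mitf the melanocyte sums overlapped too, at 7.71 to 15.5 and 11.9 to 13.3 CPM, and 5 of the 7 genes were higher in KO. Of the 6 endothelial genes, 2 were higher and 4 lower in KO by their fitted values. Tek was at 3.72 ± 1.54 CPM in WT against 1.32 ± 0.244 CPM in KO (SD, n = 3 each). Pecam1 went the other way, at 1.14 ± 0.236 and 1.78 ± 0.124 CPM (SD, n = 3 each), with every KO library above every WT library. All 54 tested markers of other cell types summed to 308 to 362 CPM in WT and 140 to 218 CPM in KO, but to 47.6 to 70.8 and 46.4 to 67.6 CPM without Col1a1, Col1a2, Thy1 and Mitf, which were left out after their values were seen. By fitted value 30 of the 54 were higher and 24 lower, with a median log2 fold change of 0.01. The unadjusted p in edgeR was below 0.05 for 11 of the 54 (20.4%), against 11.5% of all tested genes. Every KO library was below every WT library for 7 of them (13%), against 8.23% of all tested genes, and above for 3 (5.56%), against 8.03%. The 1 called gene among them was Mitf, a transcription factor of melanocytes, with 61.2 ± 10.8 CPM in WT against 32.0 ± 4.33 CPM in KO (SD, n = 3 each) (log2 fold change -0.93, SE 0.14, adjusted p = 0.0158 from edgeR), a call that held in 6 of 11 other settings and was lost with limma-voom (adjusted p = 0.0699), after filterByExpr (0.0877, edgeR) and without WT c (0.241, edgeR), KO a (0.240) or KO c (0.0983). Thy1 (log2 fold change -0.96, adjusted p = 0.112 from edgeR), Col1a2 (-1.18, adjusted p = 0.0555) and Tek (-1.49, adjusted p = 0.0708) were not called. Cd74, the most abundant macrophage and Langerhans cell gene here, had a log2 fold change of 0.01 (adjusted p = 0.999 from edgeR). The part of such cells in the lower Slfn9, Slfn8 and Slfn10-ps levels was not tested. Of the 8 bulge markers, 2 had a higher and 6 a lower fitted value in KO, with a median log2 fold change of -0.14. Only Cd34, a surface marker of bulge stem cells, was called, and it was lower (853 ± 40.7 and 516 ± 113 CPM, SD, n = 3 each, log2 fold change -0.72, SE 0.14, adjusted p = 0.0462 from edgeR), where 0.212% of all genes were called lower. This call held in 5 of 11 other settings and was lost with limma-voom (adjusted p = 0.119), after filterByExpr (0.131, edgeR) and without WT b (0.0685, edgeR), WT c (0.379), KO a (0.25) or KO c (0.184). Lgr5 had -0.47 (adjusted p = 0.283 from edgeR), and Krt5, Krt14, Krt15, Krt19, Itga6 and Trp63 lay between -0.28 and 0.18.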

How the data were processed

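The authors sorted GFP-positive keratinocytes of 6 mice, made strand-specific libraries of polyadenylated RNA, sequenced single reads of 65 bases, aligned them to GRCm38 and Ensembl genes with TopHat2 2.1.0 (Bowtie 1.1), and counted the reads that mapped uniquely to the strand of each gene. The deposited values are these raw counts, without normalization or pooling. The columns name the genotype without a sample number, which left the replicates unnumbered, and p-values measure the spread between these mice. No pair of libraries was a copy (chi-square per degree of freedom of at least 10.7). The members and lists were chosen with earlier results of these data known.

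The quasi-likelihood test of edgeR 4.0.16 (TMM, glmQLFit, glmQLFTest; R 4.3.3) compared KO with WT for the 21681 genes that had any count, over which p-values were adjusted by the Benjamini-Hochberg method, and every adjusted p is from edgeR unless another tool is named. Called means an adjusted p below 0.05. Members were among these genes in the fit and in the shares over all genes, but their p-values were set aside and are not given. Each SE is the absolute log2 fold change divided by the square root of the F statistic of the same edgeR test. Alternatives were limma-voom (limma 3.58.1), DESeq2 1.42.0, library size only, upper-quartile factors, filterByExpr and each library left out in turn, 11 settings in all. The fits were tested on simulated counts. Exon lengths and 65-base windows came from GENCODE release M 21 (GRCm38), in which 98.9% of the identifiers were found, 70.2% of them at unchanged coordinates, and identities from pairwise alignment with Biopython 1.88. Ratio intervals are exact conditional binomial intervals on summed counts (SciPy 1.17.1), which leave out the spread between mice. Besides the members, the genes named were the other Schlafen genes, Itga3, called genes of each list (up to 5) or else examples among the 3 with the smallest p, its most abundant gene, the 3 nearest genes on each side, and for each member the 2 genes with the most similar pattern among those with a mean of at least 20 counts. Any other gene is said to have been named after its values were seen, apart from the bulge markers and genes given only as marker counts or for their position. Single values of some genes counted in the lists are not reported here.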

Additional observations from a re-analysis of the deposited data

How the results depend on the processing

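The log2 fold changes of Slfn9, Slfn8 and Slfn10-ps kept their direction in every setting run. WT levels per kb moved by less than 1 SD when unique windows replaced the exon length. Leaving out 1 of 3 libraries cannot move a mean by 1 SD, so the alternatives of that kind say nothing on how stable these levels are. The log2 fold change of Slfn2 was -0.86 to -0.01 over the 10 other settings that kept this gene. It was -0.01 without WT c, so its direction is not settled. Calls over all genes depended on the setting: 146 in edgeR, 24 with limma-voom, 546 with DESeq2, 15 after filterByExpr (which tests fewer genes), and 5 (without WT c) to 521 (without WT a) with 1 library left out. Itga3 had log2 fold changes of -1.31 to -1.01 with 1 library left out. Interferon signalling genes gave 0 calls in edgeR, 1 with DESeq2 and 0 to 1 with 1 library left out. Interferon-stimulated genes gave 1 call in edgeR, 0 with limma-voom, 3 with DESeq2, 0 after filterByExpr and 0 to 2 with 1 library left out. Within 1 Mb of the cluster there were 2 calls in edgeR, 1 with limma-voom, 1 after filterByExpr, 1 within 0.5 Mb and 1 to 2 with 1 library left out. Markers of other cell types gave 1 call in edgeR, 0 with limma-voom, 5 with DESeq2, 0 after filterByExpr and 0 to 2 with 1 library left out. The causes were not tested. Slfn2 and Slfn5 were below what this depth can compare. No paired analysis was possible because the table columns carry no sample numbers.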

Other observations

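The genes whose pattern over the 6 libraries was most like that of a member were ranked by the root-mean-square difference in centred log2 CPM, over 12889 genes with a mean of at least 20 counts. Beside Slfn9 stood 2310058D17Rik (0.414), a noncoding transcript elsewhere on chromosome 11, and Ctgf (0.458), a secreted matricellular protein also named CCN2. 2310058D17Rik had 3.16 ± 0.257 CPM in WT against 0.528 ± 0.206 CPM in KO (SD, n = 3 each; log2 fold change -2.56, SE 0.32, adjusted p = 0.00573 from edgeR, but 0.204 without WT c and 0.092 without KO a). Ctgf had 725 ± 124 and 245 ± 32.0 CPM (SD, n = 3 each; log2 fold change -1.56, SE 0.14, adjusted p = 0.00054 from edgeR, 0.0926 without WT c). Slfn8 was nearest to Slfn9 itself (0.386) and then to Ctgf (0.553). Slfn10-ps was nearest to 2310058D17Rik (1.01) and Slfn9 (1.15), both at a larger distance than any pair named for the other members. Slfn2 was nearest to Ppp1r1b (0.224) and Dapl1 (0.265), and Slfn5 to Col1a1 (0.218) and Mylk (0.310), but both members had counts too low for this measure to carry information on their pattern. The measure is a description over 6 libraries that fall into 2 groups. Genes picked for likeness to Slfn9 share its difference between the genotypes through this choice. The adjusted p-values of 2310058D17Rik and Ctgf are therefore no independent evidence.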
